A study of Mus musculus with 62 samples.

Results

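Cell cycle and replication genes were examined as a family chosen by gene symbol: names that begin with Mcm or Cdc and a digit, Cdk and a digit, Ccna, Ccnb, Ccnd, Ccne, E2f, Pola, Pold, Pole, Prim, Rfc, Cenp, Aurk, Bub, Anapc, Kif1 or Kif2, without Ccnd3 and Anapc13. Of the 10476 gene names in the count table, 73 fitted this rule, through 188 of its 23877 transcripts, and each gene was represented by the transcript with the highest mean level. All 73 lie on the plus strand, as do all transcripts of the table that could be matched to an annotation; genes of the other strand were not analysed here. The genes were chosen by name, with earlier results of these data known, and the transcript of each gene by its measured mean level.

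RNA-seq (poly(A)-selected mRNA) and Ribo-seq (ribosome-protected footprints left after nuclease digestion) were compared in mouse heart and in C2C12 cells, a mouse myoblast line. The hearts came from 10-week-old male C57BL/6J wild-type (WT) mice and from Rpl3l-/- mice. In the latter, exon 2 of Rpl3l was deleted by CRISPR, which shifts the reading frame. Rpl3l is the muscle-restricted paralogue of the ribosomal protein gene Rpl3. There were 4 libraries per genotype and assay. The C2C12 cells had been infected with a retrovirus for RPL3 (RPL3 OE), for RPL3L (RPL3L OE) or with the empty vector (control), selected with puromycin and kept at low density so that they went on dividing. There were 3 libraries per group and assay. Overexpression from a virus in a dividing line and loss of a gene in an adult organ are different models, and nothing in one is a replicate of the other.

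Dividing cells load the MCM helicase on origins with the help of CDC6, fire origins with the CDC7 kinase and copy DNA with polymerases primed by the primase and tethered by clamps that the RFC complex loads. E2F factors drive the transcription of these S-phase genes once cyclin-dependent kinases have inactivated the retinoblastoma proteins. Genes for mitosis (kinesins, centromere proteins, Aurora kinases, the spindle checkpoint) are mostly expressed later. The repressor complex DREAM and the activator complex MYB-MuvB control them through CHR elements, and their promoters often hold CCAAT elements as well. Adult cardiomyocytes have largely left the cell cycle, whereas myoblasts at low density proliferate. Several genes that share the names have other roles, such as the transport kinesin Kif1c, the Mediator kinases Cdk8 and Cdk19 and the CDC42-binding kinase Cdc42bpa, and they were kept as groups of their own.

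Total counts per library ran from 3594696 to 22425296 in heart RNA-seq and from 1606700 to 3192090 in heart Ribo-seq. They ran from 7647102 to 29746110 in C2C12 RNA-seq and from 3167026 to 6093268 in C2C12 Ribo-seq. In heart RNA-seq, depth differed by genotype: 3594696, 4416516, 5162755 and 14041366 in WT, against 10930435 to 22425296 in Rpl3l-/- hearts. The same level therefore rested on fewer counts in WT hearts 1 to 3 than in any Rpl3l-/- heart. In heart Ribo-seq the ranges overlapped, at 1873813 to 3192090 in WT and 1606700 to 2322481 in Rpl3l-/- hearts. Rpl3l itself stood at 490 to 717 CPM (counts scaled to library size) in WT heart RNA-seq and at 32.3 to 54.8 CPM in Rpl3l-/- hearts, and at 1535 to 1571 CPM in RPL3L OE cells. Of 20 airway marker genes, 12 were in the table. Their summed RNA-seq level spread from 6.45 to 729.7 CPM among WT hearts and from 7.06 to 2396 CPM among Rpl3l-/- hearts. In RNA-seq the sum was over 100 CPM in WT hearts 2 and 4 and in Rpl3l-/- hearts 1 and 3, but in Ribo-seq in WT hearts 2 and 4 and in Rpl3l-/- hearts 1 and 2. The summed level of 7 cardiomyocyte markers was 54440 to 74250 CPM in hearts and 177 to 230 CPM in C2C12 cells. Levels below are CPM scaled by the trimmed mean of M-values over the 17 libraries of an assay.

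The first comparison asked how far the family differs between a heart and dividing myoblasts, with WT heart set against control C2C12. Summed by role, the genes for chromosome segregation and DNA copying were lower in heart. The sum of the anaphase-promoting complex was level and that of the transport kinesins was higher, while single members of both went either way. The 6 mitotic kinesins, motors that build and work the spindle, summed to 7.11 ± 1.73 CPM in WT heart (SD, n = 4) and to 392.3 ± 6.35 CPM in control C2C12 (SD, n = 3), a 55.2-fold ratio. The ratio was 15.6 for the 4 licensing and firing genes (11.03 ± 1.61 against 172 ± 4.54 CPM) and 5.83 for the 11 centromere, checkpoint and Aurora genes (100.2 ± 6.87 against 584 ± 12.9 CPM). It was 5.38 for the 4 polymerase, primase and clamp loader genes (40.8 ± 6.38 against 219.9 ± 5.31 CPM). Sums are weighted to genes of high level, such as Cenpa, and need not rank the groups as single genes do. By gene, the median log2 change was -6.028 in the mitotic kinesins, with Kif14 at the bound given below. It was -4.393 in the licensing group, -4.861 in the 10 centromere group genes tested and -2.715 in the polymerase group. The anaphase-promoting complex is the ubiquitin ligase that ends mitosis and is also present in non-dividing cells. Its genes summed to 330.2 ± 36.4 CPM in heart and 330.3 ± 14.4 CPM in C2C12. By gene, Anapc10 (log2 change -1.52), Anapc15 (-1.10) and Cdc16 (-0.29) were lower in the tests below, and Anapc7 (0.69) and Anapc11 (0.50) higher. Scaled by library totals instead, Anapc2, Anapc4, Anapc10, Anapc15 and Cdc16 were lower and none of those tested was higher. The transport kinesins summed to 2.22 times more in heart (1032 ± 60.98 against 464.5 ± 14.3 CPM), and most of that sum was Kif1c, described below. In the tests below Kif26a was also higher, Kif21b (log2 change -1.43) and Kif26b (-1.51) were lower and Kif13b was not called. In bulk samples, fewer cells of a type and less RNA per cell cannot be told apart.

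**Figure D1:**
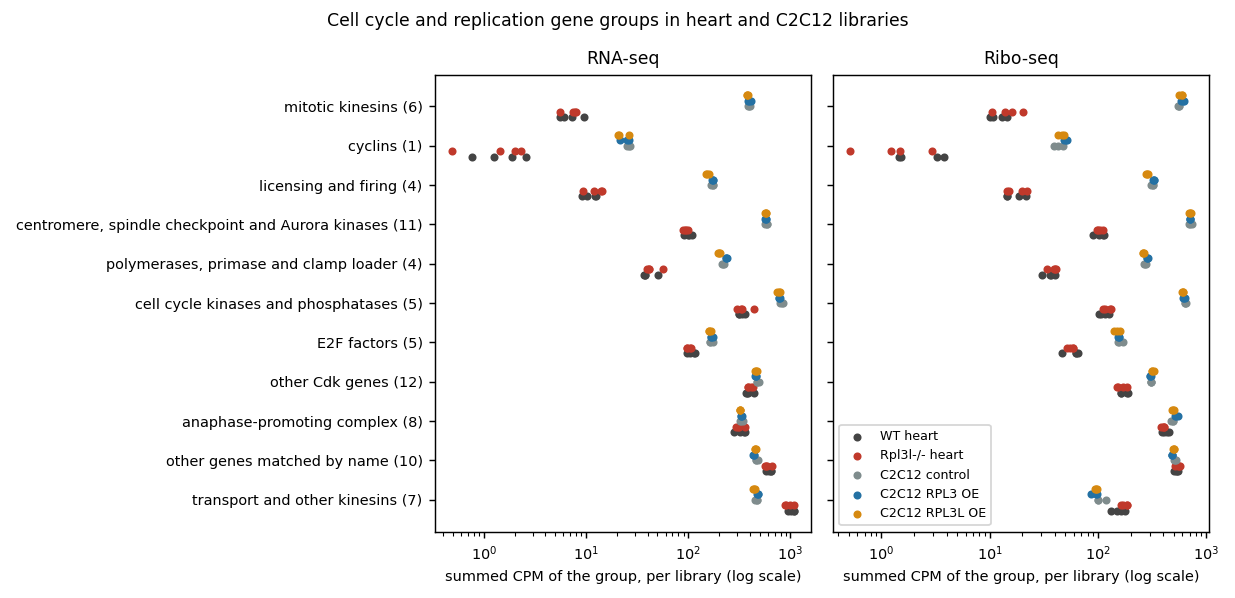
Summed level of each gene group (number of genes in brackets) in every library, in CPM on a log scale, for RNA-seq on the left and Ribo-seq on the right, with 1 point per library. Heart and C2C12 points of the mitotic kinesins lie 55.2-fold apart in the RNA-seq means, those of the anaphase-promoting complex overlap in RNA-seq but not in Ribo-seq (386.3 to 452.7 CPM in WT heart, 470 to 495.2 CPM in control C2C12), and the 2 heart genotypes overlap in every group.

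Gene by gene, 61 of 67 members that passed the filter on low counts differed at an adjusted p under 0.05 by edgeR's quasi-likelihood test, where 82.1% of all genes tested did. By direction, 47 of 67 (70.1%) were lower in heart against 40.9% of all genes tested, and 14 (20.9%) were higher against 41.2%. The median log2 change over the members was -1.59, also with the genes at 0 counts set at their bound, against -0.02 over all genes. All 6 mitotic kinesins, all 10 tested centromere and checkpoint genes, all 4 licensing genes, all 4 polymerase group genes and the only cyclin in the table were lower. The filter took the mean count over both tissues. Members too low to test within heart RNA-seq, such as Kif11, Kif14, Aurkb and Cdc6, passed it through the C2C12 libraries. Their lower calls were partly set by that entry and are no support for a direction. Kif26a passed through heart in the same way. With both organs sampled in separate experiments, tissue, animal and culture cannot be told apart here.

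Among the mitotic kinesins, Kif11, the motor that pushes spindle poles apart, had 0, 0, 0.937 and 1.14 CPM in the WT hearts and 79.8, 82.1 and 85.6 CPM in the control cells, a log2 change of -6.72 (SE 0.28, adjusted p = 4.556e-11). Kif20a, which works at the midzone during cytokinesis, had 3.80, 3.46, 2.34 and 1.52 CPM in heart and 164.9, 172.5 and 168.2 CPM in the cells (-6.14, SE 0.19). The groups are far from overlapping for both. The SEs were derived from the test statistic, and at such low heart counts they can be smaller than counting error alone. Kif15, a second spindle motor, and Kif20b, a cytokinesis kinesin, changed by -6.49 (SE 0.28) and -5.92 (SE 0.25). Kif14 had 0 counts in all 4 WT hearts, so that only a bound can be given: at least 31.2-fold lower in heart, against a floor of 3 counts per library.

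In the centromere and checkpoint group the lowest relative levels were those of Cenpe, the kinetochore kinesin (-6.97, SE 0.21), and Cenpi, a constitutive centromere protein (-6.76, SE 0.31). Aurkb, the kinase of the chromosomal passenger complex, had 1.90, 0.629, 1.17 and 0.0951 CPM in heart and 59.7, 60.9 and 63.5 CPM in the cells (-6.53, SE 0.32). Bub1b, the checkpoint protein BUBR1, stood at 2.28, 1.57, 3.05 and 2.09 CPM against 93.5, 95.3 and 95.7 CPM (-5.38, SE 0.16). Less far apart were Bub3, a checkpoint protein (-1.30, SE 0.12), and Cenpa, the centromeric histone H3 variant, at 31.9, 56.0, 41.0 and 40.8 CPM in heart and 106.9, 118.2 and 111.4 CPM in the cells (-1.39, SE 0.14). Per kb of transcript Cenpa was the highest of the group in both, at 28.9 ± 6.82 CPM per kb in heart (SD, n = 4) and 76.5 ± 3.86 in the cells (SD, n = 3).

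Of the replication genes, Mcm5, a subunit of the replicative helicase, had 7.97, 3.15, 3.75 and 6.09 CPM in heart and 129.7, 124.5 and 131.9 CPM in the cells (-4.58, SE 0.18). Cdc6, the loading factor, had 0, 0, 0.469 and 1.43 CPM against 23.96, 22.95 and 24.4 CPM (-4.87, SE 0.36). Prim1, the catalytic primase subunit, had 3.42, 3.78, 3.28 and 3.42 CPM against 67.9, 64.6 and 70.4 CPM (-4.27, SE 0.14). Heart and cell libraries did not overlap for any of them. Mcm8, a helicase of recombination repair, differed least of the licensing group (-0.82, SE 0.23). In the polymerase group, Pole, the leading-strand polymerase, Pold4, a small polymerase delta subunit, and Rfc2, a clamp loader subunit, followed Prim1 at -3.22 (SE 0.17), -2.21 (SE 0.14) and -1.32 (SE 0.14).

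The G1 regulators were lower as well. Cdk4, the cyclin D kinase, had 77.1, 76.8, 66.8 and 80.2 CPM in heart and 543.1, 529.9 and 565.4 CPM in the cells (-2.84, SE 0.10), and in the cells it was the highest member per kb, at 266 ± 8.74 CPM per kb (SD, n = 3). Its reads cannot be kept apart from those of its antisense neighbour Tspan31 unless the counting used strand, which is not given in the sources used here. Ccne2, an S-phase cyclin, had 0.759, 1.26, 2.58 and 1.90 CPM against 26.8, 26.1 and 24.9 CPM (-3.84, SE 0.23). Cdc25b, a phosphatase that activates mitotic kinase, changed by -4.50 (SE 0.16). In the E2F family, E2f7, an atypical repressor, had 5 counts over the 4 hearts and 2217 over the 3 cultures, a depth-scaled ratio of 121 (95% exact interval 51.8 to 374, counting error only). E2f2, an activator, had 3 and 1221 counts, a ratio of 111 (38 to 540).

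The 14 members that were higher in heart came mostly from outside the cycle. E2f6, an E2F repressor that acts with Polycomb proteins, had 58.5, 56.6, 72.4 and 69.2 CPM in heart and 26.7, 27.5 and 28.2 CPM in the cells (1.25, SE 0.12), opposite in direction to the other 4 E2F genes. Kif1c, a transport kinesin, had 927.4, 1050, 971.7 and 1029 CPM in heart and 449.7, 430.7 and 456 CPM in the cells (1.18, SE 0.09). At 197 ± 11.1 CPM per kb (SD, n = 4) it was the highest member in heart per kb, with Cdc34 within its spread at 194 ± 12.8 CPM per kb. Kif26a had 10.3 to 28.6 CPM in heart and 0 counts in all 3 control RNA-seq libraries, at least 157-fold higher in heart. The ubiquitin-conjugating enzyme Cdc34 (1.09, SE 0.09) and its near-identical copy Cdc34b (1.58, SE 0.26), whose reads the counting can share, were also higher, with Cdc37l1 (1.57, SE 0.11), Aurkaip1 (1.28, SE 0.12), Cdc42bpg (1.23, SE 0.20), Ccndbp1 (1.18, SE 0.12) and Poldip2 (0.98, SE 0.09). Scaled by library totals instead, which moved the median of all genes to -0.78, 57 of the 61 calls were the same. Anapc7 and Anapc11 were lost, and Cdk10 and Cdk11b turned from higher to lower, for 10 higher and 54 lower. Shares of all genes by direction are not given for this scaling, so this split cannot be set against a background.

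**Figure D2:**
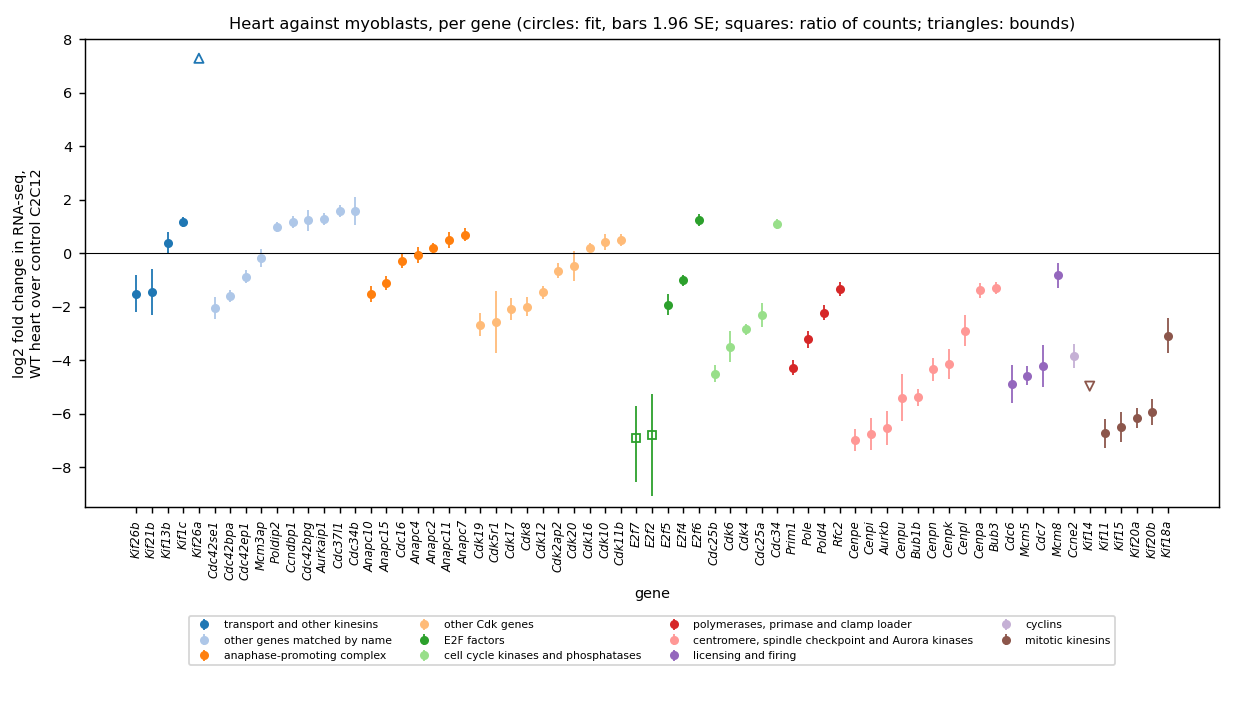
Log2 fold change in RNA-seq of WT heart over control C2C12 for the 67 members tested, coloured by group. For genes of few heart counts the bars can be narrower than counting error. Circles are fitted values with bars of 1.96 SE, squares ratios of summed counts with their counting interval (E2f7 and E2f2), and triangles bounds where 1 tissue had 0 counts (Kif14 below, Kif26a above); the mitotic kinesins fitted lie between -6.72 and -3.07 and E2f6 at 1.25.

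Of 98 further genes of replication and mitosis listed apart from the family, 51 were in the table and tested: 48 were lower in heart and 1 was higher, with a median of -4.42. Only 34 of the 51 passed the filter within heart RNA-seq, and the others entered through the C2C12 libraries. Foxm1, the mitotic gene activator, changed by -7.88 (SE 0.18), Birc5 (survivin) by -7.72 (SE 0.31) and Plk1 by -7.13 (SE 0.22), while Tfdp2, an E2F partner, was the higher one at 1.74 (SE 0.13).

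Promoter windows were read for the members to set the elements named above beside these differences. RefSeq windows of 300 bases (250 before to 50 after the gene start, build GRCm38.p6) were found for 57 of the 73 members, 45 of them within 100 bases of the start of the transcript counted. Searched on both strands, the E2F letters TTTCCCGC, TTTCGCGC, TTTGCCGC or TTTGGCGC were in 11 of 36 windows (30.6%) of members lower in heart, in 0 of 11 of those higher and in 0 of 10 of the others, against 2.26% of the 32817 windows of the table. The CHR letters TTTGAA were in 12 of the 36 (33.3%) and in 2 of the 11 (18.2%), against 17.9% of all windows. CCAAT was in 22 of the 36 (61.1%) and in 2 of the 11 (18.2%), against 37.4%. In the 15 windows of the mitotic kinesin and centromere groups, CHR letters were in 9 (60.0%), CCAAT in 12 (80.0%) and E2F letters in 3 (20.0%). A match describes letters in a window, and binding was not measured.

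The windows of Kif15, Cdc6 and Kif18a are shown because they have the largest falls among members with E2F letters whose window lies within 100 bases of the transcript start and that had over 3 counts in a heart library (E2f7, E2f2 and Mcm5 also hold E2F letters and did not meet this), followed by Kif11, Kif20b and Bub1b as members with CHR letters, and E2f6 and Ccndbp1 as members higher in heart with no match. Capitals mark the matches; each is on the plus strand, 5′ to 3′, at chr9:122950831-122951130, chr11:98907901-98908200, chr2:109280488-109280787, chr19:37376132-37376431, chr19:34922108-34922407, chr2:118597961-118598260, chr12:16810715-16811014 and chr2:121008158-121008457 in that order.
Kif15: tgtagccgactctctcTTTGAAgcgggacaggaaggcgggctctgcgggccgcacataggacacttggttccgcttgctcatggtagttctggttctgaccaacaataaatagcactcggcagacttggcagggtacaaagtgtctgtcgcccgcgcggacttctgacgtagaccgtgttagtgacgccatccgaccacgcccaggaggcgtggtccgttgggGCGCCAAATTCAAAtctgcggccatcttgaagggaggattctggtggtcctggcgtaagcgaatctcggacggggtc
Cdc6: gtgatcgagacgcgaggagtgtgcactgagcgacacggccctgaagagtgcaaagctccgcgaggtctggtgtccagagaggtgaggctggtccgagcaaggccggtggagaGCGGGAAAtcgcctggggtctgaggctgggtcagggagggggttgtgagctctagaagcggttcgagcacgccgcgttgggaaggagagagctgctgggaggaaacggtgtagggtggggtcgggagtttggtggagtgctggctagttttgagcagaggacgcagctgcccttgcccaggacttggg
Kif18a: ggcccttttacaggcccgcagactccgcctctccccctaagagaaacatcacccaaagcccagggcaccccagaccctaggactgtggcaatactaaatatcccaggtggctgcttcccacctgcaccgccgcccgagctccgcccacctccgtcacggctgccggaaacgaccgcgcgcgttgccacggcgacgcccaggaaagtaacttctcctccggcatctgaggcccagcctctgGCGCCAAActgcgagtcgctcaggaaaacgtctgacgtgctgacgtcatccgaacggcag
Kif11: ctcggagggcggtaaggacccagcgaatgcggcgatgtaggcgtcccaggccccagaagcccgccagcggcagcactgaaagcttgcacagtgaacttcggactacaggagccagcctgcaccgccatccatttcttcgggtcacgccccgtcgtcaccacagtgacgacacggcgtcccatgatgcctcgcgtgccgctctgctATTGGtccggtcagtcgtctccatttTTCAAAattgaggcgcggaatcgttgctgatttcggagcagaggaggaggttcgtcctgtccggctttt
Kif20b: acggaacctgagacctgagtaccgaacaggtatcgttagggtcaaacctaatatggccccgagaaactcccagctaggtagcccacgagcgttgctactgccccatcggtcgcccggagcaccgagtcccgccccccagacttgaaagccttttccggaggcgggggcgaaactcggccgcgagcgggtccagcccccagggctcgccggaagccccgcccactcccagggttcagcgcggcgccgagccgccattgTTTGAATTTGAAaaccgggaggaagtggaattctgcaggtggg
Bub1b: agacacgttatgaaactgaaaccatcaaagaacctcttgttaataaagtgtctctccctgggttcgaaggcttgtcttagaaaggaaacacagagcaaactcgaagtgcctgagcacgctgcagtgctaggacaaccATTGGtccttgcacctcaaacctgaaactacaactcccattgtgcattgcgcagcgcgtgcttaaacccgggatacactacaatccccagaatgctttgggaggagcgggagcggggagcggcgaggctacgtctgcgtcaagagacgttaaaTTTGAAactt
E2f6: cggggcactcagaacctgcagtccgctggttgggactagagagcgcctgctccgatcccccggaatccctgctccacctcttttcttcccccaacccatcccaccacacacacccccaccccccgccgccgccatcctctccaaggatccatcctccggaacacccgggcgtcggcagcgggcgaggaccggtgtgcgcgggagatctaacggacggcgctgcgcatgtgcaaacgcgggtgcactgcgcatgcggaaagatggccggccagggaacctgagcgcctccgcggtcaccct
Ccndbp1: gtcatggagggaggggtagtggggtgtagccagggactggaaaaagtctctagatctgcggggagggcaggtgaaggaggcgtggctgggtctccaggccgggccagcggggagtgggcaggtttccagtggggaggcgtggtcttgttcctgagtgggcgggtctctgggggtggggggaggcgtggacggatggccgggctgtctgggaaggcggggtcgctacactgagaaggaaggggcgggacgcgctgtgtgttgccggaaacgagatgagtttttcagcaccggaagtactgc
In these letters the E2F match of Kif15 (GCGCCAAA) starts 27 bases before the gene start and that of Kif18a 10 bases before it, and Kif11 has its CHR match 19 bases and its CCAAT match 45 bases before the start.

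Ribo-seq gave the same direction for these groups. The mitotic kinesins summed to 12.1 ± 2.12 CPM in WT heart and 553 ± 10.1 CPM in control C2C12 (SD, n = 4 and 3), a ratio of 45.9. The licensing genes summed to 17.3 ± 3.498 and 316 ± 9.20 CPM, a ratio of 18.2. Translational efficiency (TE, footprints relative to RNA, tested as the interaction of tissue and assay) differed for 28 of 65 members tested (43.1%), against 48.3% of all genes, so the family was not called more often than the table. TE of Cdc34 was lower in heart: its RNA was 231.6, 252.3, 232.1 and 264.7 CPM in heart against 114.8, 118.1 and 118.5 CPM in the cells. Its footprints were 50.2, 49.2, 47.2 and 57.5 CPM against 72.6, 74.1 and 72.4 CPM, a TE change of -1.65 (SE 0.13). RNA and footprints differ in opposite directions with no overlap. Cdc34b (-2.23, SE 0.27), Cdk10 (-1.36, SE 0.24), Cdc42bpg (-1.36, SE 0.30), Cdc42ep1 (-0.90, SE 0.16), Aurkaip1 (-0.86), E2f4 (-0.83), Cdk11b (-0.82), Anapc11 (-0.74) and Rfc2 (-0.74) were lower too, the last 2 without a call when scaled by library totals (-0.35 and -0.36).

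Cdc42bpa, a kinase of the cytoskeleton, had the opposite pattern, with 34.5, 28.6, 41.5 and 34.7 CPM of RNA in heart against 106.9, 100.9 and 112.2 CPM in the cells. It had 41.5, 48.2, 41.7 and 48.1 CPM of footprints against 37.3, 43.1 and 42.1 CPM (TE change 1.68, SE 0.16). Its footprint levels overlap between the tissues while its RNA levels do not. Higher TE in heart was also called for Cdk19 (1.53, SE 0.34), Cdk17 (1.13, SE 0.26), Cdc25a (1.08, SE 0.35) and Cdk12 (0.45), though the call was lost in 5 of 14 alternative settings for Cdc25a and in 7 of 14 for Cdk12. The calls for Cenpe and Cenpi rest on 1 to 6 and 0 to 7 RNA-seq counts per WT heart, and no fold is given for Kif14 and Kif26a, which had 0 RNA-seq counts in heart and in the cells, respectively. The split was 8 higher and 20 lower, but 13 higher and 10 lower when scaled by library totals. Shares of all genes by direction are not given for either split. Library totals moved the median TE change of all genes from -0.12 to 0.25. With that scaling 18 of the 28 calls were the same, 10 were lost and 0 turned.

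The second comparison, Rpl3l-/- against WT hearts, asked whether loss of RPL3L alters these genes. No member passed the test in RNA-seq (0 of 53 tested), Ribo-seq (0 of 40) or TE (0 of 40), by edgeR or by DESeq2. Of all genes tested, 0.0159% were called in RNA-seq, 0.818% in Ribo-seq and 0% in TE. With so few calls in the whole table, 0 calls among the members cannot show whether they differ from it. The median log2 change over members was -0.05 in RNA-seq against 0.01 over all genes, 0.06 against 0.02 in Ribo-seq and 0.06 against 0.00 in TE. The 34 other cell cycle genes tested in RNA-seq, and the 17 in Ribo-seq and TE, gave 0 calls as well.

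The intervals (1.96 SE) say what size of change these libraries could still hold. In RNA-seq they lay within ±1 on the log2 scale for 43 of 53 members and within ±0.5 for 20, with half-widths from 0.21 (Poldip2) to 1.56 (Kif19a). In Ribo-seq they lay within ±1 for 35 of 40 and within ±0.5 for 18. The 20 members too low to be tested in heart RNA-seq include Aurkb, Cdc6, Cdc7, Kif11, Kif14, Kif15 and Kif20b, and 33 were too low in heart Ribo-seq. For much of the mitotic group a change was not detectable at this depth. Kif11 had 1.58, 0.770, 0.893 and 1.32 CPM in the Rpl3l-/- hearts, and Aurkb 0.689, 1.112, 1.116 and 1.435 CPM. Both ranges overlap those of the WT hearts given above.

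Of the members that could be tested, Mcm5, Cdk4 and E2f6 serve as examples. Mcm5 had 6.40, 2.57, 6.86 and 7.30 CPM in Rpl3l-/- RNA-seq (0.14, SE 0.38). Cdk4 had 70.8, 86.6, 83.2 and 61.2 CPM (interval -0.26 to 0.26) and E2f6 57.0, 70.0, 59.4 and 64.6 CPM (-0.04, SE 0.13), each overlapping the WT range given above. The smallest p in RNA-seq was that of Anapc15, a subunit of the anaphase-promoting complex, with 12.2, 16.0, 13.4 and 13.9 CPM in WT and 19.9, 28.2, 16.9 and 14.8 CPM in Rpl3l-/- hearts (0.52, SE 0.21, adjusted p = 0.9994 by edgeR), with overlap. Rfc2 (0.37, SE 0.17) and Cenpe (1.38, SE 0.70) came next at the same adjusted p, and Cenpe had only 1 to 34 counts per heart.

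In Ribo-seq the smallest p was that of Cdc16, another subunit of the anaphase-promoting complex, with 62.2, 59.3, 63.7 and 50.0 CPM in WT and 46.4, 45.7, 47.2 and 41.6 CPM in Rpl3l-/- hearts (-0.38, SE 0.12, adjusted p = 0.127 by edgeR). The footprint levels do not overlap, as for 5 of the 40 members tested, against 10.6% of all genes tested. Its RNA levels do overlap, at 65.7, 54.1, 44.0 and 53.1 CPM against 45.7, 55.3, 46.6 and 53.6 CPM. Cdk8, a Mediator kinase, had 6.91, 7.71, 7.03 and 5.00 CPM against 3.71, 4.11, 6 and 1.46 CPM (-0.80, SE 0.34, adjusted p = 0.248) and the smallest p in TE (-1.21, SE 0.42, adjusted p = 0.566). Cdk17 in Ribo-seq (-0.37, SE 0.16), Kif13b in TE (0.67, SE 0.26) and Cdk11b in TE (-0.37, SE 0.17) followed, none past the threshold. Without the hearts over 100 CPM of airway markers (4 of 8 hearts in each assay), the count of calls was again 0 in all 3 measures, but with 2 hearts left per genotype a call was harder to reach, so this says nothing about stability. In TE, the Rpl3l-/- hearts left then also had different numbers in the 2 assays.

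**Figure D3:**
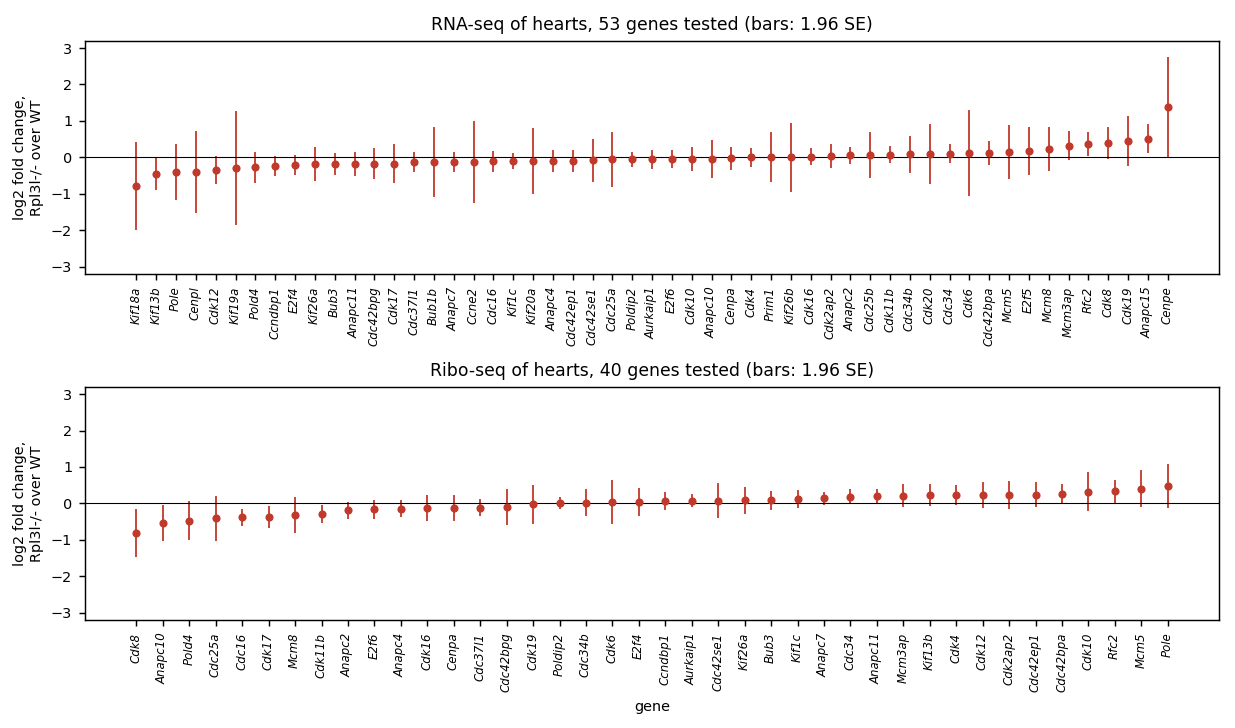
Log2 fold change of Rpl3l-/- over WT heart for every member tested, in RNA-seq (53 genes, top) and Ribo-seq (40 genes, bottom), sorted by size, with bars of 1.96 SE. Points gather around 0, and none passed the adjusted threshold; the widest bars belong to genes of few counts such as Kif19a.

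The third set of comparisons asked what an excess of RPL3 or RPL3L does to these genes in dividing myoblasts. The 3 comparisons share groups, so their values are given side by side and are not independent. In RNA-seq, 5 of 66 members tested (7.58%) were called between RPL3L OE and control (2 higher, 3 lower), 10 (15.2%) between RPL3 OE and control (4 higher, 6 lower) and 20 (30.3%) between RPL3L OE and RPL3 OE (8 higher, 12 lower). Of all genes tested, 9.67%, 17.2% and 27.6% were called in the same order. Each share lay close to its background, so these counts are not a result about the family. Changes were small, at most 0.77 on the log2 scale. Beside them, 4 of 6 myoblast markers were lower in RPL3 OE than in control and 4 of 6 were higher in RPL3L OE than in control. Their summed levels were 3841 to 3970 CPM in control, 3659 to 3767 in RPL3 OE and 3939 to 4149 in RPL3L OE. The 7 fibroblast markers summed to 1405 to 1422, 2028 to 2036 and 1474 to 1503 CPM. Their part in the results was not tested.

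Of the replication genes, 1 of 4 licensing genes and 2 of 4 genes of the polymerase group were lower in RPL3L OE than in control. Of all members tested 4.55% were called lower, and 9.67% of all genes were called in either direction. The share of all genes called lower is not given here, so these counts are not a result about the groups. Mcm5 had 129.7, 124.5 and 131.9 CPM in control, 132.9, 131.7 and 135.4 CPM in RPL3 OE and 110.0, 111.1 and 118.4 CPM in RPL3L OE, without overlap with either other group (-0.15, SE 0.04, adjusted p = 0.00977 against control; -0.24, SE 0.04, adjusted p = 5.80e-06 against RPL3 OE). Pold4 had 64.7, 60.9 and 60.8 CPM in control, 71.2, 71.0 and 62.0 CPM in RPL3 OE and 53.3, 49.9 and 56.1 CPM in RPL3L OE, lower by 0.18 than control (log2 -0.18, SE 0.06, adjusted p = 0.026). Rfc2 had 53.5, 54.7 and 57.2 CPM, 58.1, 55.8 and 56.1 CPM and 44.6, 51.5 and 47.6 CPM in the same order (-0.17, SE 0.06, adjusted p = 0.0475, a call lost in 10 of 16 alternative settings). All 3 RPL3L OE libraries were the lowest for each of these genes. Against RPL3 OE all 4 genes of the polymerase, primase and clamp loader group were lower, where 14.4% of all genes tested were called lower: Pold4 (-0.35, SE 0.06), Rfc2 (-0.25, SE 0.06), Pole (-0.21, SE 0.07) and Prim1 (-0.16, SE 0.05). The group of 4 was singled out after its values were seen. Prim1 and Pold4 were higher in RPL3 OE than in control (0.16 and 0.17, SE 0.05 each).

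The E2F activator E2f2 was lower in RPL3 OE: 16.5, 16.3 and 16.0 CPM in control, 11.5, 11.5 and 10.5 CPM in RPL3 OE and 17.6, 17.8 and 18.8 CPM in RPL3L OE (-0.50, SE 0.10, adjusted p = 0.000102 against control; RPL3L OE over RPL3 OE 0.69, SE 0.11). The RPL3 OE libraries lie below all 6 others. The same order held for Cdc42ep1, a CDC42 effector, with 75.2, 72.3 and 79.2 CPM, 58.5, 62.2 and 61.3 CPM and 77.9, 81.9 and 79.5 CPM (-0.28, SE 0.05, RPL3 OE against control). RPL3 OE was also below control for Cdc25b (-0.18, SE 0.04), Cdc42bpg (-0.40, SE 0.12), Kif13b (-0.53, SE 0.14) and Cdk19 (-0.24, SE 0.07), and below RPL3L OE for each of them. Cdc42bpg was in addition higher in RPL3L OE than in control (0.37, SE 0.11), as was Cdk12, a kinase of transcript elongation (0.19, SE 0.06). Cdc16 (0.15) and Kif1c (0.10) were higher in RPL3 OE than in control. Further members lower in RPL3L OE than in RPL3 OE were E2f5 (-0.40), Cenpu (-0.26), Anapc4 (-0.18) and E2f4 (-0.17), and Kif14 was higher (0.29).

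**Figure D4:**
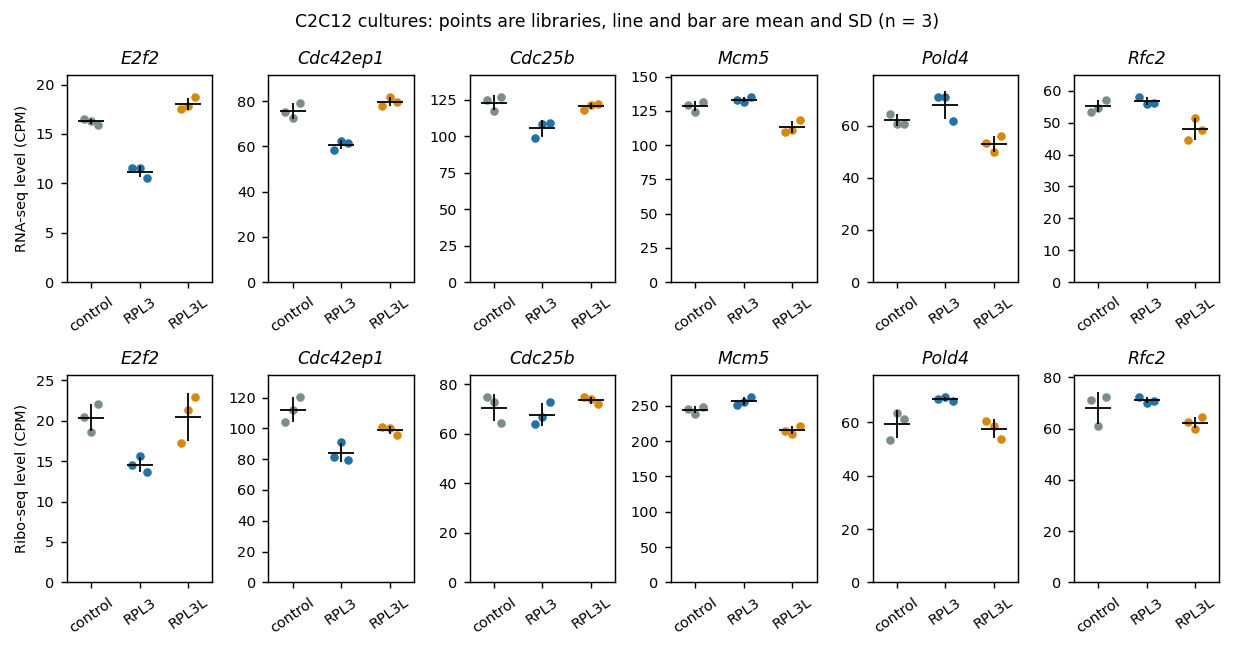
CPM of 6 genes in each C2C12 library, RNA-seq above and Ribo-seq below, with points for libraries and a line and bar for the mean and SD (n = 3); every axis starts at 0. E2f2 and Cdc42ep1 are lowest in RPL3 OE and Mcm5 is lowest in RPL3L OE in both assays.

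In Ribo-seq, 6 of 66 members (9.09%) were called between RPL3L OE and control, 9 (13.6%) between RPL3 OE and control and 9 (13.6%) between RPL3L OE and RPL3 OE, against 12.2%, 11.7% and 19.5% of all genes tested. Mcm5 footprints repeated the RNA pattern, with 245.4, 239.1 and 249 CPM in control, 252, 256 and 262.6 CPM in RPL3 OE and 214.1, 210.2 and 221.4 CPM in RPL3L OE (-0.18, SE 0.05, adjusted p = 0.0123 against control). So did E2f2, with 20.5, 18.7 and 22.0 CPM, 14.5, 15.6 and 13.7 CPM and 17.2, 21.4 and 22.9 CPM (-0.47, SE 0.14, RPL3 OE against control). RPL3 OE was also lower than control for Cdc42ep1 (-0.39, SE 0.06), Kif13b (-0.44) and Cdc34 (-0.21), and higher for Anapc4 (0.28, SE 0.06), Pold4 (0.22) and Cdc16 (0.19). Of these calls, those of Anapc4 and Cdc42ep1 were kept under all 16 alternative settings, while Cdc34 and Cdc16 were lost in 8, Pold4 in 7 and Kif13b in 5, as was E2f2. Scaled by library totals the split for RPL3 OE against control was 9 higher and 2 lower in place of 5 and 4. For RPL3L OE against RPL3 OE it was 4 higher and 3 lower in place of 3 and 6. Shares of all genes by direction are not given beside these splits.

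More footprints in RPL3L OE than in control were called for 5 members (7.58% of those tested, against 5.55% of all genes), a share near the background: 3 of 6 mitotic kinesins and 2 of 10 centromere group genes tested. Kif20b had 50.5, 47.5 and 52.3 CPM of footprints in control, 62.4, 55.1 and 63.2 CPM in RPL3 OE and 63.8, 62.7 and 62.1 CPM in RPL3L OE (0.33, SE 0.07, adjusted p = 0.00263 against control). Kif11 had 122.6, 126.5 and 122.6 CPM, 137.3, 134.1 and 138.2 CPM and 139.1, 142 and 138.2 CPM (0.18, SE 0.05, adjusted p = 0.0194). Kif18a, which dampens chromosome movements, had 17.6, 19.2 and 22.6 CPM, 27.9, 27.3 and 27.4 CPM and 26.5, 23.3 and 26.3 CPM (0.37, SE 0.11, adjusted p = 0.0253). For these 3 kinesins the RPL3L OE libraries did not overlap the control libraries, by which they were chosen. Cenpk, a centromere protein (0.39, SE 0.13, adjusted p = 0.0454), and Cenpe (0.24, SE 0.08, adjusted p = 0.0379, with overlap) were the others. Kif20b was called under all 16 alternative settings, and the other calls were lost in 4 to 6 of them.

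RNA of these 5 genes differed between RPL3L OE and control by -0.02 to 0.09 on the log2 scale, none called. Kif20b had 60.0, 55.4 and 62.8 CPM of RNA in control and 60.9, 58.4 and 56.7 CPM in RPL3L OE. RPL3 OE was set against the same 3 control libraries, so its values are given side by side and are not separate evidence: 0.49 for Kif18a (SE 0.11, adjusted p = 0.00313), 0.25 for Kif20b (SE 0.08, adjusted p = 0.0285, lost in 5 of 16 alternative settings), and, not called, 0.34 for Cenpk, 0.21 for Cenpe and 0.14 for Kif11. The direct differences, RPL3L OE over RPL3 OE, ran from -0.11 (Kif18a, interval -0.30 to 0.07) to 0.08 (Kif20b, interval -0.05 to 0.21), none called. By group sum, mitotic kinesin footprints were 553 ± 10.1 CPM in control, 605 ± 21.1 in RPL3 OE and 585 ± 18.1 in RPL3L OE (SD, n = 3 each).

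**Figure D5:**
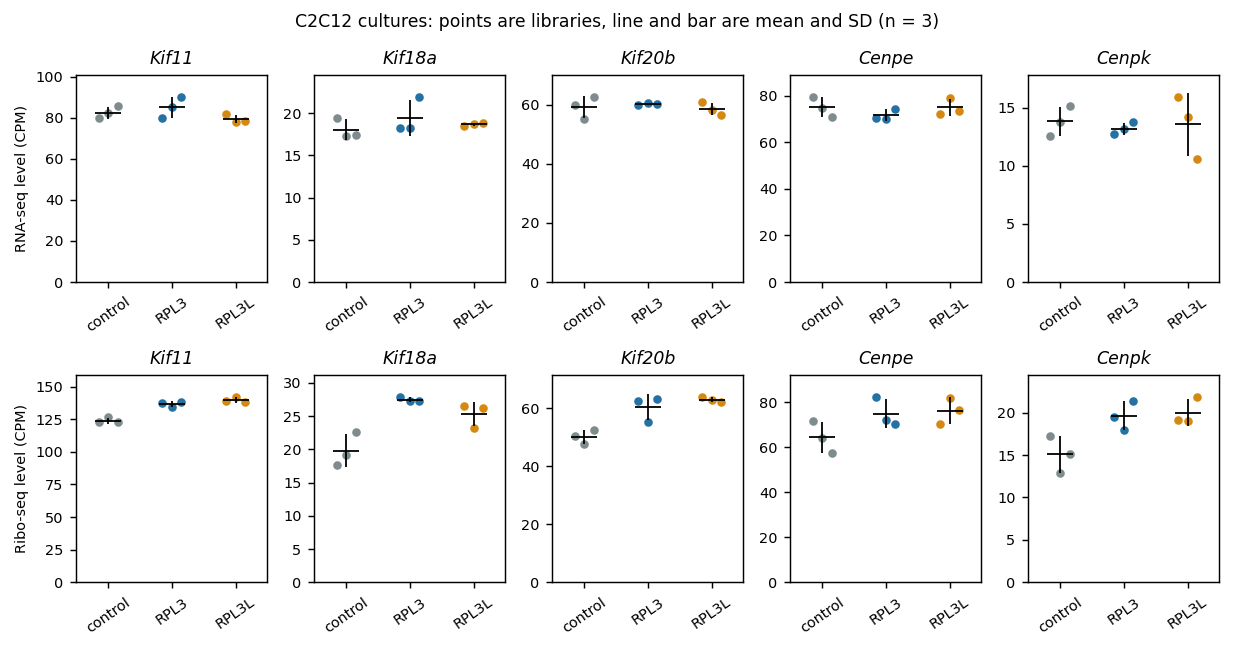
CPM of the 5 genes called higher in Ribo-seq of RPL3L OE than of control, in each C2C12 library, RNA-seq above and Ribo-seq below, with points for libraries and a line and bar for the mean and SD (n = 3); every axis starts at 0. RNA levels overlap between the groups, and RPL3L OE footprints of Kif11, Kif18a, Kif20b and Cenpk lie above control, the contrast that chose them.

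TE was called for 2 of 66 members between RPL3L OE and control (3.03%, against 2.2% of all genes tested): Kif20b was higher (0.31, SE 0.09, adjusted p = 0.04996, lost in 11 of 16 alternative settings) and Cdc42ep1 lower (-0.28, SE 0.08, adjusted p = 0.0305, lost in 6 of 16). For the other 4 of these genes the TE changes were 0.19 (Kif11), 0.28 (Kif18a), 0.19 (Cenpe) and 0.40 (Cenpk), with adjusted p of 0.123, 0.36, 0.309 and 0.246. Between RPL3 OE and control and between RPL3L OE and RPL3 OE 0 of 66 members were called by edgeR, and 0 and 0 by DESeq2. Of all genes, 0.0925% and 0.277% were called. The smallest p belonged to Kif1c (-0.25) and Cdk10 (-0.40). Of the 51 other cell cycle genes, Smc4, a condensin subunit, had higher TE in RPL3L OE than in control (0.41, SE 0.07, adjusted p = 6.76e-04) and than in RPL3 OE (0.31, SE 0.07, adjusted p = 0.0186).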

How the data were processed

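RNA-seq and Ribo-seq of hearts and C2C12 cells were used from a table of counts per transcript that the authors deposited; per the study's methods, reads were counted with multiple mappings allowed, so transcripts of a gene share reads, and strand setting and tool versions are not given in the sources used here. The deposited table had 47754 lines, each transcript on 2 identical lines, of which 1 was kept (23877). Names came from GENCODE M21, with 215 transcripts not matched. 16 disome columns and an m6A table were not used. Per the study, hearts came from separate mice and C2C12 libraries from independent samples, which the labels do not state; p-values measure the spread between libraries, which by chi-square exceeded counting noise.

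Counts were fitted over the whole table with edgeR 4.0.16 (R 4.3.3; glmQLFit, glmQLFTest, TMM within assay, transcripts averaging under 10 counts in an assay left out), with Benjamini-Hochberg adjustment over all transcripts tested and a threshold of 0.05; TE was tested by a group-by-assay interaction term. All heart groups entered the heart fits, all C2C12 groups the C2C12 fits. Background shares count 1 transcript per gene. The SE was the absolute log2 change divided by the square root of the F value of the test. For genes of few counts it can fall below counting error. Intervals are 1.96 SE. The fits were tested on simulated data. Alternatives were DESeq2 1.42.0, library totals, other filters, 1 transcript per gene, a replicate block and leaving out each library (in TE, both libraries of a number). The fits without hearts high in airway markers were chosen after seeing the data.

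Named members are those called, at most 10 per direction, or the 3 smallest p where 0 were called, and the highest per kb in each group; further members named to describe a group were chosen after their values were seen. Members and lists were chosen with earlier results of these data known. Depth limits the precision of low genes: 3 counts per library was the floor.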

Additional observations from a re-analysis of the deposited data

Results flagged for a closer look

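In the hearts, 72 groups of 4 libraries were checked over 18 members, and in 8 of them 1 library stood apart, its gap to the nearest of the others being above Dixon's critical share of the range; chance gives this in about 1 in 20 groups. Aurkaip1 RNA was 206.2 CPM in Rpl3l-/- heart 2 against 153.1 to 159.3 in the others, and Aurkaip1 footprints were 112.9 CPM in WT heart 3 against 130.5 to 132.5. Cdk17 RNA was 19.74 CPM in WT heart 1 against 8.18 to 9.89, and Cdk8 RNA was 12.92 CPM in Rpl3l-/- heart 4 against 15.06 to 15.31. Rfc2 RNA was 26.91 CPM in WT heart 4 against 18.24 to 19.68. In Ribo-seq, Mcm5 was 10.04 CPM in WT heart 3 against 7.27 to 7.71, Cdk16 was 12 CPM in Rpl3l-/- heart 3 against 14.38 to 14.84, and Rfc2 was 23.99 CPM in Rpl3l-/- heart 3 against 20.4 to 20.55. None of these members was called between the genotypes.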

How the results depend on the processing

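Over the members named, 1490 of 1691 values under alternative settings had the same call status as the main fit. A call was lost in 201, and 0 changed direction. The 1490 include members without a call in the main fit, such as those named in the heart comparisons, which had none to lose. By DESeq2 the count of members called was 2 in place of 5 in C2C12 RNA-seq for RPL3L OE against control, and in C2C12 Ribo-seq 2 in place of 6 for RPL3L OE against control, 3 in place of 9 for RPL3 OE against control and 2 in place of 9 for RPL3L OE against RPL3 OE. In TE of RPL3L OE against control, where 2 were called, DESeq2, library totals and 1 transcript per gene each gave 1 and no filter gave 0. The cause was not tested.

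Leaving out each library gave 0 to 0 calls in heart RNA-seq, Ribo-seq and TE, 0 to 5, 5 to 10 and 14 to 20 in C2C12 RNA-seq (RPL3L OE against control, RPL3 OE against control, RPL3L OE against RPL3 OE), 2 to 7, 3 to 9 and 4 to 10 in C2C12 Ribo-seq, 0 to 2, 0 to 0 and 0 to 0 in C2C12 TE, 59 to 62 between heart and C2C12 in RNA-seq and 21 to 29 in TE. In RNA-seq, RPL3L OE against control had 0 calls without RPL3L OE 1 and 3 without control 2, RPL3L OE 2 or RPL3L OE 3, and RPL3 OE against control 6 without RPL3 OE 2 and 5 without RPL3 OE 3. In Ribo-seq, RPL3L OE against control had 2 without control 3 or RPL3L OE 2 and 3 without RPL3L OE 3; RPL3 OE against control had 3 without control 1 and 5 without control 3, RPL3 OE 1 or RPL3 OE 3. RPL3L OE against RPL3 OE had 5 without RPL3 OE 1 or RPL3 OE 3 and 4 without RPL3L OE 3. In TE, RPL3L OE against control had 0 without control 2, control 3, RPL3L OE 2 or RPL3L OE 3 and 1 without control 1, RPL3 OE 1, RPL3 OE 3 or RPL3L OE 1.

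Replicate numbers did not pair the groups: deviations of same-numbered libraries correlated from -0.262 to 0.322 between heart genotypes and from -0.071 to 0.065 between C2C12 groups. Between RNA-seq and Ribo-seq of the same number they correlated from 0.185 to 0.306 in WT hearts, each best with its own number, but at 0.703, -0.639, -0.721 and 0.555 in Rpl3l-/- hearts 1 to 4. Whether numbers 2 and 3 are crossed was not tested. The main TE values do not use the numbers, whereas the TE fit with the replicate block does. So do the TE fits that left out libraries, since both assays of a number were dropped together. With a replicate block the counts were 0 in heart RNA-seq, Ribo-seq and TE, 4, 10 and 20 in C2C12 RNA-seq, 7, 9 and 10 in C2C12 Ribo-seq, 2, 0 and 0 in C2C12 TE, and 59 in RNA-seq and 28 in TE between heart and C2C12. Without the hearts high in airway markers, 60 and 22 members were called between heart and C2C12. Depth limits the heart Ribo-seq: 33 members were too low to test there.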
